A study of Mus musculus with 2 samples.

Results

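The type I interferon-stimulated genes described here are the members of a list of 50 mouse genes that were found by symbol in the deposited count tables. The tables hold 48 of the 50 among 32285 genes, and Mx1 and Mx2 were not analysed here. Both groups are tumours of Hepa1-6 cells, an established mouse hepatoma line, and each group is 1 single-cell RNA library. The treated group received CD147-LYTACs, lysosome-targeting chimaeras directed at the membrane glycoprotein CD147, at 40 mg/kg with an interval of 3 days between doses and 4 doses in all, and the control group is labelled only as control. Tumours of both groups were taken on day 12, and sorted CD45- and CD45+ cells were recombined at 1 part to 3 parts, so the shares of tumour and immune cells follow the sort. The labels give neither what the control mice received, nor 1 route of administration, nor the strain, age or number of mice behind a library.

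The control library held 8150 barcodes with a median of 6732 UMIs (unique molecular identifiers, which count captured RNA molecules), and the treated library held 9219 barcodes with a median of 5953. The 2 libraries shared 24 barcodes. Cells were assigned to types by marker genes that include no member. This gave, in the control and the treated library, 1905 and 2068 hepatoma cells, 141 and 1145 neutrophils, 103 and 324 macrophages, 80 and 59 conventional dendritic cells, 2582 and 1909 CD8 T cells, 271 and 177 CD4 T cells, 88 and 63 regulatory T cells, and 63 and 69 NK cells. These 8 types were compared, and 31 and 76 monocytes were used for levels only. Of 15 hepatoma markers 14 were detected in the hepatoma cells of each library, and all markers of their own list were detected in the other 7 types. As a gauge of free RNA, the T cell gene Cd3e was at 0.968 and 0.665 CPM in hepatoma cells against 316 and 321 CPM in CD8 T cells. The keratin gene Krt8, at 1716 and 1819 CPM in hepatoma cells, was at 34.1 and 43.4 CPM in neutrophils (1.99% and 2.39% of the hepatoma level) and 20.1 and 19.1 CPM in CD8 T cells. The neutrophil gene S100a8 was at 0.852 and 5.24 CPM in hepatoma cells and 7.31 and 71.9 CPM in macrophages, against 20192 and 13338 CPM in neutrophils. The part of free RNA in the member values was not tested. With 1 library per group there is no replicate and no test. Levels are counts per 1000000 UMIs (CPM) after summing the cells of a type, differences are log2 ratios of the treated over the control level, and the 95% intervals in parentheses cover counting error only, not variation between mice, tumours or preparations. The intervals of levels and ratios also leave out variation between cells. They are too narrow where few cells hold most UMIs of a gene.

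Type I interferons are cytokines that signal through the receptor chains Ifnar1 and Ifnar2 and the kinases Jak1 and Tyk2. The kinases activate a complex containing Stat2 and Irf9 that binds interferon-stimulated response elements upstream of its targets. The induced proteins restrict viruses, sense foreign nucleic acid, modify proteins with the ubiquitin-like Isg15, or feed back on the pathway, and in tumours the response is known for its part in antigen presentation and immune cell recruitment. Interferon-gamma, a separate cytokine with its own receptor, induces an overlapping set.

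The DNA upstream of 6 members is shown because the results below turn on these members: 3 IFIT genes and Rsad2 were detected in few hepatoma cells, Isg15 in about as many as not, and Bst2 in nearly all. Each line gives the 200 bases before a RefSeq transcription start on GRCm38.p6, read 5' to 3' on the gene's strand, with matches to GAAA, any 2 bases and GAAA, or the reverse complement, in capitals, as the core of the interferon-stimulated response element. The windows are chr19:34640689-34640888 (plus strand) for Ifit1, chr19:34583329-34583528 (plus) for Ifit3, chr19:34607757-34607956 (plus) for Ifit3b, chr4:156200819-156201018 (minus) for Isg15, chr12:26456453-26456652 (minus) for Rsad2 and chr8:71537473-71537672 (minus) for Bst2.
Ifit1: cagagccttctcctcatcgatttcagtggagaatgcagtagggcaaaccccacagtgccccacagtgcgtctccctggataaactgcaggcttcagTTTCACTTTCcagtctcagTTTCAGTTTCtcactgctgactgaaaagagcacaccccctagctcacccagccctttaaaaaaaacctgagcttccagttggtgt
Ifit3: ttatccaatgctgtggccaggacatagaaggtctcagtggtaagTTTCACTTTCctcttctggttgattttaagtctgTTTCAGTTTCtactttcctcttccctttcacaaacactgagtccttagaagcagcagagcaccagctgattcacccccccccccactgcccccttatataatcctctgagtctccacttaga
Ifit3b: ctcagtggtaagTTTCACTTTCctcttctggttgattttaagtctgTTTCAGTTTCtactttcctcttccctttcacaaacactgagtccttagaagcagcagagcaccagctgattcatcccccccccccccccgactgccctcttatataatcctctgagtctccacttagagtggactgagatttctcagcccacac
Isg15: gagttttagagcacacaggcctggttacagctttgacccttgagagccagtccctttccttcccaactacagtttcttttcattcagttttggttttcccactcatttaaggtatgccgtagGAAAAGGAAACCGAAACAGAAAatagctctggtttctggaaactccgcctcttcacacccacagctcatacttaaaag
Rsad2: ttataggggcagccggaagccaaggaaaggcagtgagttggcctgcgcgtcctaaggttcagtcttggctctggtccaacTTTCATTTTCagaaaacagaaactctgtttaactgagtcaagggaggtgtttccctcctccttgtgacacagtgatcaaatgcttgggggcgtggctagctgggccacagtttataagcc
Bst2: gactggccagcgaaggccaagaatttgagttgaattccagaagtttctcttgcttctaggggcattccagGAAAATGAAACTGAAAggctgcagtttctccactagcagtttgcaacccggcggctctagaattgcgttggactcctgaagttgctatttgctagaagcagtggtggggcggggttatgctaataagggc
When the Ifit3 and Ifit3b windows were offset by 32 bases without gaps, 138 of 168 bases (82.1%) were identical. A run of c differs in length between them, so the bases after it are out of register and the count understates the likeness. The matched letters recur in both. Reads of these paralogs, and of neighbouring p200 and oligoadenylate synthetase genes, may be assigned between copies, so their separate values are uncertain.

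RefSeq promoter windows, from 250 bases before to 50 after a start site, were available for 40 of the 48 members, in 48 windows. The core motif was found on either strand in 24 of the 48 windows (50%), against 3.44% of 32851 windows over all genes. At least 2 matches, overlapping ones included, were present in 16.7% of member windows and 0.225% of all windows. By role, a match was present for 4 of 5 IFIT genes, 5 of 6 p200 genes, 3 of 4 RNA sensors and RNA-binding proteins, 2 of 4 oligoadenylate synthetase genes and both Bst2 and Ifitm3, but for 1 of 3 genes of the ISG15 system, 1 of 4 nucleotide and nucleic acid enzymes, 1 of 3 transcription factors and 3 of 9 other members. The motif TTCNNNGAA, the core of the interferon-gamma-activated site, was found in 18.8% of member windows and 8.30% of all windows; it is its own reverse complement. A match here describes the letters and was not tested for binding.

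**Figure D1:**
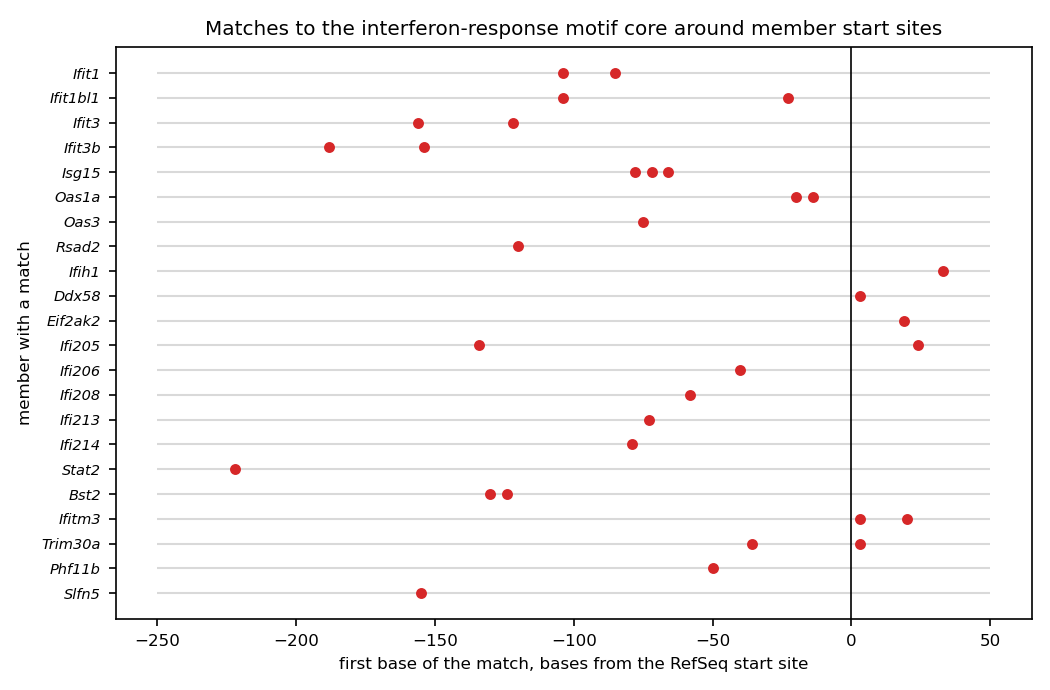
Position of each match to the interferon-response motif core (points) in bases from the RefSeq start site (vertical line at 0), for the 22 of 40 members with a match; grey lines span the window searched, and members with more than 1 start site have the matches of every site on 1 line. The Isg15 matches lie at -78, -72 and -66, and those of Ifitm3 lie past the start site.

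The members were unevenly spread over the cell types in both libraries. Their summed level was 8831 CPM in control and 9253 CPM in treated monocytes, 6202 and 5323 CPM in macrophages, 6188 and 5612 CPM in neutrophils, 4579 and 4560 CPM in conventional dendritic cells, and 3289 and 3373 CPM in hepatoma cells. It was lower in T and NK cells, at 1669 and 1668 CPM in CD8 T cells, 1967 and 1956 CPM in CD4 T cells, 2534 and 3055 CPM in regulatory T cells and 1082 and 918 CPM in NK cells. Over these 9 types, the type with the highest level was the same in both libraries for 28 of the 48 members. Monocytes held the highest level of 14 members in the control library and of 26 in the treated library. Over the 31 control monocytes a single UMI counts heavily, so this order is coarse.

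Members differed in the types where they were highest. Slfn4, a Schlafen family gene, stood at 624 CPM in control and 530 CPM in treated neutrophils and at 83.3 CPM or less in every other of the 9 types. Epsti1, a gene named for epithelial-stromal interaction, was highest in CD8 T cells at 304 and 296 CPM and lay at 1.41 and 1.46 CPM in hepatoma cells. Bst2, the membrane tether also called tetherin, was highest in hepatoma cells among the 9 types at 678 and 751 CPM, as was Zbp1, a sensor of Z-form nucleic acid, at 229 and 228 CPM. Zbp1 was next highest in monocytes, at 151 and 133 CPM. Samhd1, a deoxynucleotide hydrolase, was highest in monocytes at 1020 and 757 CPM, and stood at 805 and 443 CPM in neutrophils. Ifi27l2a stood at 961 and 890 CPM in monocytes, 830 and 1032 CPM in regulatory T cells, 579 and 557 CPM in CD4 T cells and 151 and 189 CPM in CD8 T cells. The p200 gene Ifi214 was highest in CD8 T cells at 17.1 and 14.5 CPM, whereas its neighbour Ifi205 was highest in monocytes at 786 and 381 CPM and lay at 0.945 and 3.99 CPM in CD8 T cells.

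**Figure D2:**
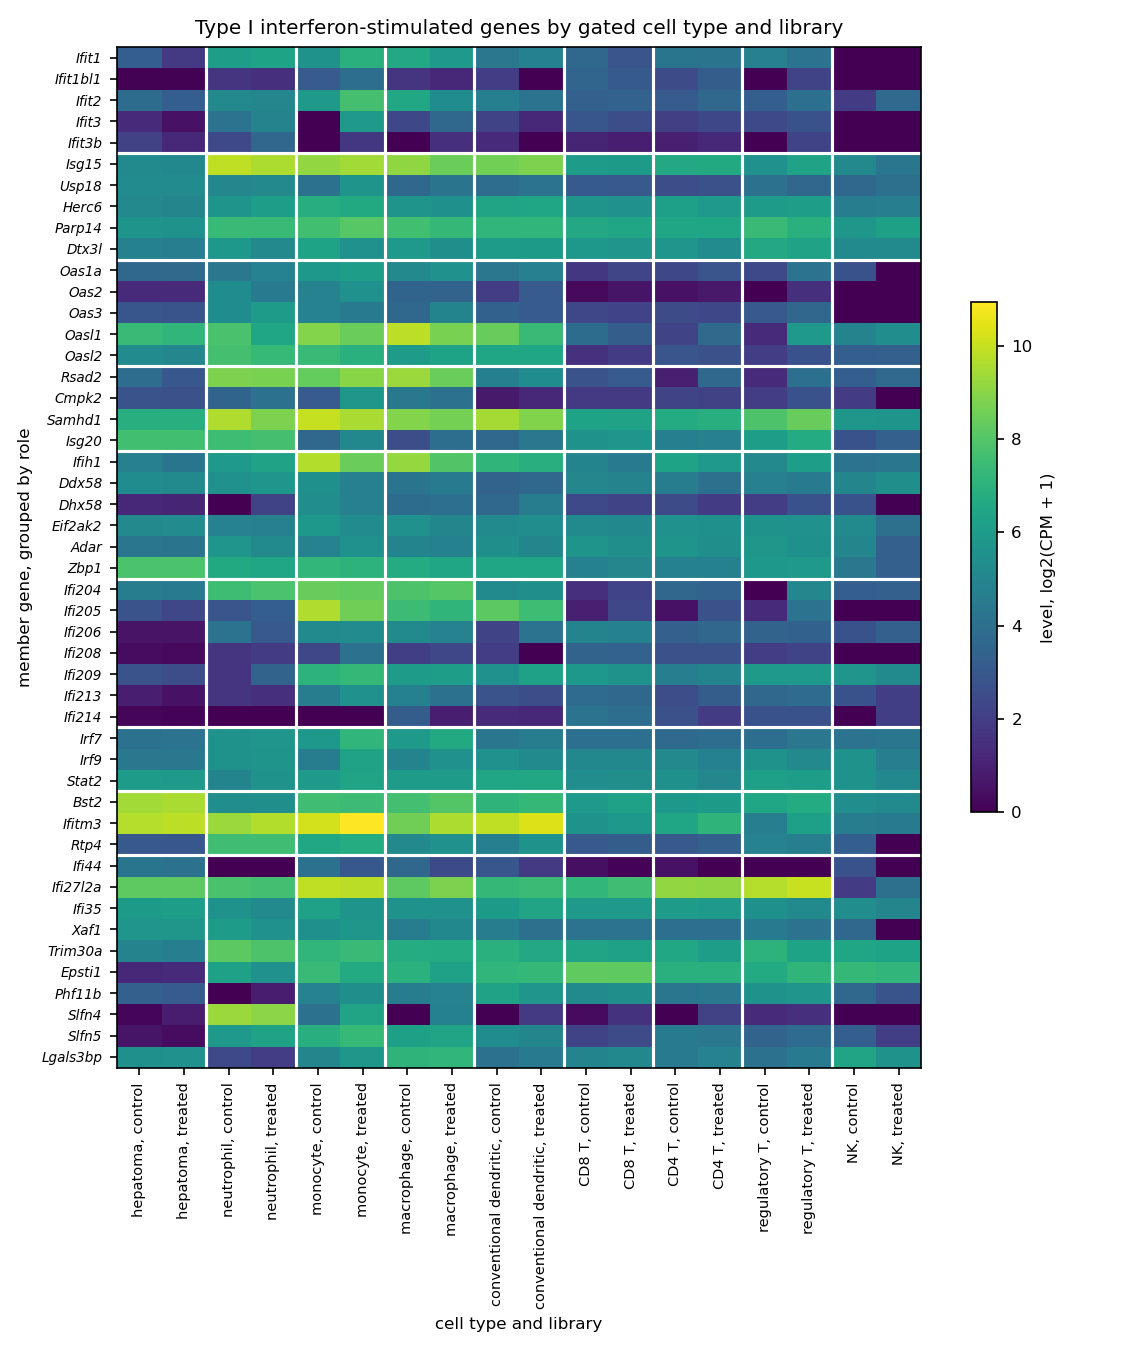
Level of each of the 48 members (rows, grouped by role with white lines) in 9 gated cell types of the control and the treated library (columns), as log2(CPM + 1) on the colour scale. Ifitm3, Bst2 and Oasl1 are bright in hepatoma cells, Slfn4 is bright in neutrophils, and the NK columns are dark for most members.

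In the comparison of the libraries, a member was compared in a type when it had at least 100 UMIs over both libraries. The median log2 ratio of the members lay near that of all genes compared in the same type, at -0.10 over 42 members in hepatoma cells (all genes -0.02), 0.02 over 34 in neutrophils (-0.11), -0.07 over 29 in macrophages (0.01), -0.02 over 19 in conventional dendritic cells (0.02), -0.06 over 40 in CD8 T cells (-0.03), and -0.08 over 16 in CD4 T cells (-0.05). In regulatory T cells it was 0.30 over 8 members (-0.06). There it was 0.04 over the 23 members with at least 30 UMIs (all genes -0.02). Over the 43 members with at least 1 UMI in each library it was 0.31 (all genes 0.01). In NK cells Epsti1 was the only member compared, at 157 CPM in control and 144 CPM in treated cells (-0.12), where 2.54% of 1340 genes were at least 1.5-fold higher and 4.48% lower. Members at least 1.5-fold apart were a minority in every type.

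**Figure D3:**
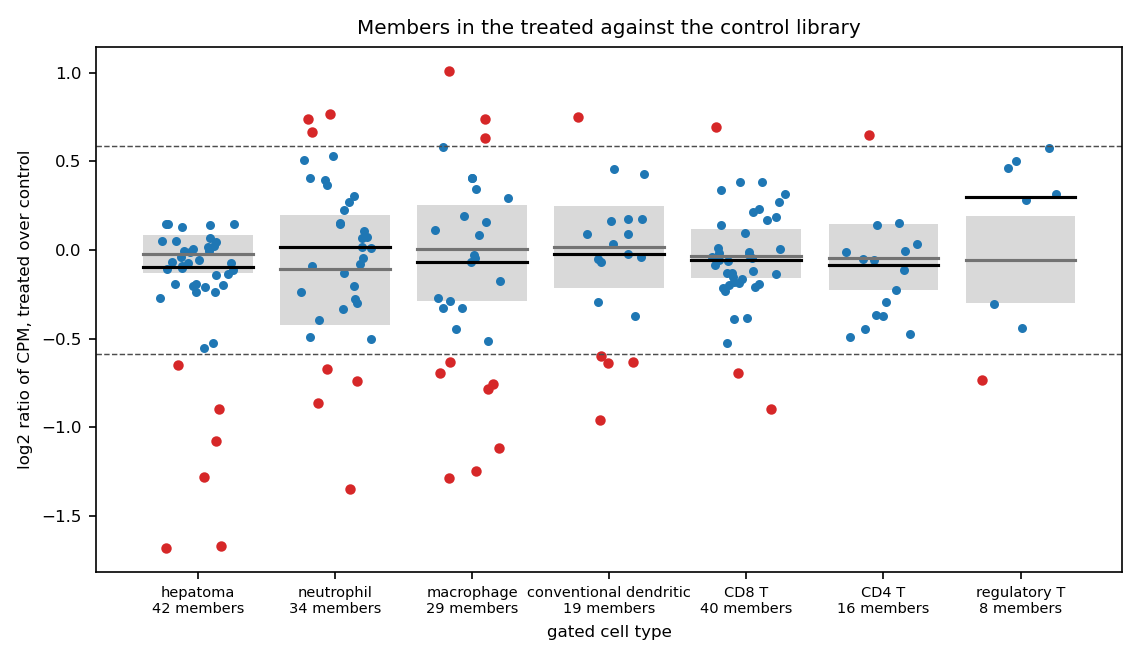
Log2 ratio of the treated over the control level for each member with at least 100 UMIs (points), by gated cell type; red points are at least 1.5-fold from no difference (dashed lines), black bars are the members' medians, and grey bars and bands are the median and quartiles of all genes compared in that type. The hepatoma points lie close to 0 except for 6 members on the lower side, of which Ifit1 and Ifit3 are lowest at -1.68 and -1.67.

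In hepatoma cells, 6 of 42 members were at least 1.5-fold lower in the treated library, where 2.32% of 13684 genes were, and 0 of 42 were at least 1.5-fold higher, where 1.48% of genes were. Of the IFIT genes, whose products bind foreign RNA, all 4 compared were among the 6. Ifit1 was at 8.59 CPM (8.01 to 9.20) in control and 2.68 CPM (2.37 to 3.02) in treated cells, a log2 ratio of -1.68 (-1.89 to -1.48). Ifit3 was at 1.44 and 0.453 CPM (-1.67, interval -2.19 to -1.17), Ifit3b at 3.45 and 1.42 CPM (-1.28, interval -1.58 to -0.99) and Ifit2 at 13.6 and 8.69 CPM (-0.65, interval -0.77 to -0.52). These 4 genes lie in 1 cluster on chromosome 19 with Ifit1bl1, which had too few UMIs to compare. Rsad2, the antiviral enzyme viperin, was at 14.2 and 6.75 CPM (-1.07, interval -1.21 to -0.94). Its neighbour on chromosome 12, Cmpk2, a nucleotide kinase, was at 5.91 and 5.46 CPM (-0.12, interval -0.29 to 0.06). The last of the 6, the p200 gene Ifi213, rested on 82 and 46 UMIs (-0.90). With cells thinned to 1000 UMIs, none of these 6 had enough UMIs to compare. Of the 20 hepatoma members that did, 1 was at least 1.5-fold lower, the RNA sensor gene Ifih1 (-0.59). The share of all genes past this fold was not counted at this depth.

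The remaining 36 hepatoma ratios lay between -0.55 and 0.15. The abundant restriction factors were slightly higher in the treated library: Ifitm3, which blocks viral entry, was at 836 and 923 CPM (0.14) and Bst2 at 678 and 751 CPM (0.15). Of the activating complex, Stat2 was at 62.8 and 59.7 CPM (-0.07) and Irf9 at 19.8 and 20.1 CPM (0.02). Irf7, a factor that amplifies interferon induction, was at 16.2 and 16.7 CPM (0.05). Isg15 was at 36.2 and 33.6 CPM (-0.11). Among the RNA sensors, Ifih1, which encodes Mda5, was at 25.9 and 18.01 CPM (-0.53), while Eif2ak2, the kinase PKR, was at 34.3 and 38.0 CPM (0.15). The 5 oligoadenylate synthetase genes had a median ratio of -0.05, and of them Oasl1 was at 168 and 146 CPM (-0.21) and Oas1a at 11.7 and 12.9 CPM (0.15).

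The hepatoma UMIs of Ifit1 and Rsad2 came from few cells. In the control library the 19 cells with the most Ifit1 UMIs, 1% of hepatoma cells, held 77.7% of its 816 UMIs, and in the treated library the 21 such cells held 68.8% of 266. For Rsad2 these shares were 66.0% and 54.8%, and for Bst2, present in 97.1% and 97.3% of hepatoma cells, they were 5.76% and 5.22%. The share of hepatoma cells with any Ifit1 UMI was 5.46% (4.48 to 6.58) in control and 4.30% (3.47 to 5.27) in treated cells, with overlapping intervals, at median depths of 46638 and 43577 UMIs. At a common depth of 1000 UMIs per cell the shares were 0.803% and 0.342%, again with overlapping intervals (0.45 to 1.32 and 0.138 to 0.704). Cells with at least 5 Ifit1 UMIs made up 30 of 1905 control cells (1.57%, 1.06 to 2.24) and 12 of 2068 treated cells (0.580%, 0.3002 to 1.01). When the 1% of cells with most UMIs of the gene was left out of each library, a check chosen after seeing the data, Ifit1 was at 1.94 and 0.849 CPM (-1.19), Rsad2 at 4.90 and 3.10 CPM (-0.66), and Ifit2 at 7.22 and 5.40 CPM (-0.42).

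The hepatoma cells with at least 5 Ifit1 UMIs, a threshold set after seeing the data, carried other members too. The other 47 members summed to 7207 CPM in these control cells and to 3138 CPM in control hepatoma cells with 0 Ifit1 UMIs, and to 6402 and 3289 CPM in the treated library. Of the members with at least 100 UMIs, 25 of 40 were at least 2-fold higher in the Ifit1-positive control cells, where 1.89% of 12197 genes were, and 25 of 39 in the treated ones, where 4.74% of 12168 genes were. At least 2-fold lower were 0 control members, where 9.09% of genes were, and 1 treated member, Epsti1, where 10.4% were. The Ifit1-positive cells were deeper, with medians of 53272 against 46287 UMIs in the control and 47717 against 43199 UMIs in the treated library. Isg15 was at 381 against 26.2 CPM in the control library and at 342 against 27.8 CPM in the treated library, and Rsad2 at 476 against 4.14 CPM and at 234 against 4.21 CPM. Cxcl10, an interferon-induced chemokine outside the list, was at 1561 against 222 CPM and 1312 against 246 CPM. Ifitm3 and Bst2 were at most 1.55-fold higher. Krt8, a keratin of the hepatoma cells, was at 1726 against 1709 CPM and 1738 against 1828 CPM, and no UMI of the macrophage gene C1qa was found in the Ifit1-positive cells of either library. A control cell of this set, described below, held 2 UMIs of another macrophage gene, Csf1r. The part of macrophage RNA in these cells was not tested.

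In CD8 T cells, 122 of 2582 control cells (4.73%) and 61 of 1909 treated cells (3.20%) held an Ifit1 UMI. At 1000 UMIs per cell the shares were 0.931% and 0.629%, with overlapping intervals (0.597 to 1.38 and 0.325 to 1.10). In these cells the other members summed to 4207 CPM, against 1524 CPM in control cells without an Ifit1 UMI, and to 3537 against 1596 CPM in the treated library, and 24 of 35 and 20 of 34 members were at least 2-fold higher, where 1.91% and 2.52% of all genes were. At least 2-fold lower were 0 members in either library, where 3.00% and 5.17% of genes were. C1qa was at 13.1 against 1.83 CPM in the control and 1.93 against 3.65 CPM in the treated library, and the part of macrophage RNA in the control value was not tested.

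**Figure D4:**
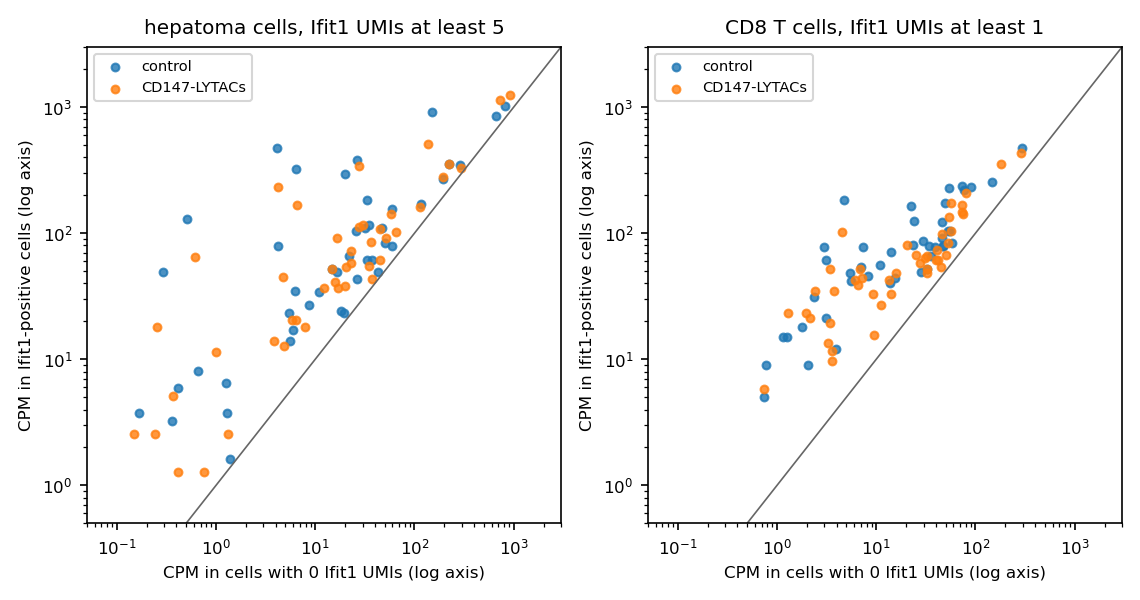
Level of each other member in Ifit1-positive cells (vertical, CPM, log axis) against cells with 0 Ifit1 UMIs (horizontal, CPM, log axis), in hepatoma cells with at least 5 Ifit1 UMIs (left) and CD8 T cells with at least 1 (right), for the control and the CD147-LYTACs library; the line marks equal levels and members at 0 in either set are not drawn. Most points lie above the line in both libraries and both cell types; Bst2 and Ifitm3 in hepatoma cells lie at most 1.55-fold above it.

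A single control hepatoma cell held 38 UMIs of Ifnb1, the gene of interferon-beta, among its 58535 UMIs. It also held 57 of the 816 Ifit1 UMIs, 164 Ifit2, 124 Oasl1 and 86 Ifih1 UMIs, but 3 of the 1351 Rsad2 UMIs. Of lineage markers it held 107 Krt8 UMIs, 2 of the macrophage gene Csf1r, and 0 of C1qa and Cd3e. The 2068 treated hepatoma cells held 1 Ifnb1 UMI in all. Over all barcodes Ifnb1 had 62 UMIs in the control and 57 in the treated library. Monocytes held 4 in control and 2 in treated cells, or 15.9 and 4.76 CPM. Macrophages held 5 Ifnb1 UMIs in control and 6 in treated cells, and no CD8 T, CD4 T, regulatory T or NK cell held any. Of 20 type I and III interferon genes, Ifnk was the next most counted, with 49 and 51 UMIs over all barcodes. Every other one had 9 or fewer in each library, so ligand RNA was near the limit of these data.

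In neutrophils, 3 of 34 members were at least 1.5-fold higher in the treated library, where 8.94% of 3636 genes were, and 4 were at least 1.5-fold lower, where 15.8% were. Both counts lie near the background. The lower members were Oasl1, at 221 CPM (104 UMIs) in control and 86.8 CPM in treated cells (-1.35, interval -1.67 to -1.02), Samhd1 at 805 and 443 CPM (-0.86, interval -1.02 to -0.70), Epsti1 at 76.7 and 45.9 CPM (-0.74) and the ubiquitin ligase Dtx3l at 55.4 and 34.7 CPM (-0.67). The higher members were Ifit3 at 17.0 and 29.0 CPM (0.77), Oas3 at 38.3 and 64.0 CPM (0.74) and Stat2 at 29.8 and 47.2 CPM (0.66). The control values of these 3 rested on 8 to 18 UMIs, and the intervals of Ifit3 (-0.26 to 2.02) and Stat2 (-0.12 to 1.56) include 0. Isg15 was at 939 and 775 CPM (-0.28), Rsad2 at 443 and 429 CPM (-0.05) and Ifitm3 at 620 and 822 CPM (0.41). Under a stricter gate Samhd1 was at -0.34, no longer 1.5-fold apart, and as a mean over cells Stat2 was at 0.05. Bst2 was at 40.5 and 42.3 CPM in neutrophils, against 678 and 751 CPM in hepatoma cells. The 12 neutrophil markers summed to 59141 CPM in control and 42706 CPM in treated neutrophils, and the part of this shift in the member values was not tested.

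In macrophages, 7 of 29 members were at least 1.5-fold lower in the treated library, where 10.3% of 4480 genes were, and 3 were at least 1.5-fold higher, where 8.06% were. Of the lower members, Ifih1 was at 594 and 250 CPM (-1.25, interval -1.42 to -1.08), Ifit2 at 94.0 and 38.6 CPM (-1.28), Oasl1 at 911 and 420 CPM (-1.12, interval -1.25 to -0.98), Rsad2 at 622 and 361 CPM (-0.79), Epsti1 at 127 and 75.4 CPM (-0.76), Ifit1 at 96.0 and 59.4 CPM (-0.69) and Isg15 at 554 and 358 CPM (-0.63). The share of macrophages with an Oasl1 UMI at 1000 UMIs per cell was 42.6% (32.8 to 52.8) in control and 20.1% (15.8 to 24.9) in treated cells, and these intervals do not overlap. For Isg15 the shares were 26.7% and 24.8%, and thinned to this depth its ratio was -0.13.

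The higher macrophage members were Ifitm3, at 378 and 762 CPM (1.01, interval 0.85 to 1.18), Irf7 at 59.5 and 99.4 CPM (0.74, interval 0.31 to 1.19) and Irf9 at 29.2 and 45.2 CPM (0.63, interval 0.02 to 1.29). Ifi27l2a, at 294 and 440 CPM (0.58), lay just inside the threshold, and Stat2 was at 63.7 and 62.5 CPM (-0.03). At 1000 UMIs per cell, 24.8% of control and 43.9% of treated macrophages held an Ifitm3 UMI (16.7 to 34.3 and 38.4 to 49.5). With cells thinned to 1000 UMIs, 9 macrophage members were compared and 4 were at least 1.5-fold lower: Ifih1, Oasl1 and Rsad2 of those named above, and Samhd1 (-0.81). Another 3 were at least 1.5-fold higher: Ifitm3 (1.525), Ifi27l2a (1.075) and Bst2 (0.63). At this depth the share of all genes past the fold was not counted, so neither count has a background beside it. Under a stricter gate Ifih1 stood at -2.02 and Oasl1 at -1.47. The 13 macrophage markers summed to 9064 CPM in control and 7941 CPM in treated macrophages and the 9 monocyte markers to 1085 and 1646 CPM, and their part in the member values was not tested. A list of 21 interferon-gamma-related genes holds Ifng itself and its receptor gene Ifngr1 beside genes the cytokine induces. In macrophages 10 of the 16 compared were at least 1.5-fold lower, where 10.3% of all genes were, and 0 higher, where 8.06% were. The median of the 16 was -1.20. Among the lower genes were Cxcl9, a T cell attracting chemokine, at 1088 and 293 CPM (-1.89), and Ciita, the activator of class II antigen presentation genes, at 90.8 and 30.2 CPM (-1.59). The overlap of this list with the type I response was not tested.

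In conventional dendritic cells, 4 of 19 members were at least 1.5-fold lower, where 6.37% of 3328 genes were, and 1 was higher, where 5.89% were. Oasl1 was at 333 and 172 CPM (-0.96, interval -1.25 to -0.67), Ifi205 at 285 and 183 CPM (-0.64), Phf11b at 78.7 and 50.7 CPM (-0.63) and Samhd1 at 698 and 462 CPM (-0.60). The higher member was Ifi209, a p200 gene, on 61 and 58 UMIs (0.75, interval 0.21 to 1.29), while Ifitm3 was at 960 and 1319 CPM (0.46). No IFIT gene reached 100 UMIs in these cells.

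CD8 T cells gave 2 of 40 members at least 1.5-fold lower, where 1.14% of 10204 genes were, and 1 higher, where 1.64% were. Ifit1 was at 11.9 and 6.40 CPM (-0.90, interval -1.25 to -0.55). Oasl1 was at 13.5 and 8.36 CPM (-0.69), but 1 control cell held 127 of its 272 UMIs, and without the 1% of cells with most Oasl1 UMIs the ratio was 0.60. As a mean over cells it was 0.33, so the direction of Oasl1 in CD8 T cells rests on few cells. The higher member was Oas1a, on 48 and 59 UMIs (0.69, interval 0.12 to 1.27). Ifit1bl1 was at 10.9 and 7.58 CPM (-0.52), Epsti1 at 304 and 296 CPM (-0.04), and Bst2 at 58.3 and 76.0 CPM (0.38, interval 0.27 to 0.50).

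In CD4 T cells, 1 of 16 members, Ifitm3, was at least 1.5-fold higher, at 88.7 and 139 CPM (0.65, interval 0.36 to 0.94), where 1.95% of 5286 genes were, and 0 were lower, where 3.50% were. Dtx3l was at 52.4 and 37.3 CPM (-0.49), Ifih1 at 80.0 and 57.7 CPM (-0.47) and Stat2 at 44.1 and 32.4 CPM (-0.45, interval -0.99 to 0.08). In regulatory T cells, 1 of 8 members, Trim30a, a regulator of innate signalling, was at least 1.5-fold lower, at 132 and 79.6 CPM (-0.73), where 6.96% of 2500 genes were, and 0 were higher, where 3.68% were. Isg20, an exonuclease, was at 69.8 and 104 CPM (0.58, interval -0.01 to 1.17) and Samhd1 at 234 and 331 CPM (0.50). In the same 63 treated cells the 13 macrophage markers summed to 102 CPM, against 21.8 CPM in control cells, and the class II gene H2-Aa was at 184 against 34.9 CPM; their part in the regulatory T values was not tested. Oasl1, below the minimum, was at 1.45 CPM in control and 58.7 CPM in treated regulatory T cells.

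Of the 48 members 17 were compared in 5 or more types, all drawn from the same 2 libraries. The same count of directions was not made over all genes, so a shared direction cannot be read as particular to the members. Ratios lay on both sides of 0 for 12 of them, among them Epsti1 from -0.76 to 0.46, Samhd1 from -0.86 to 0.50 and Stat2 from -0.45 to 0.66. They lay above 0 in each type for 2. Bst2 ranged from 0.07 in neutrophils to 0.38 in CD8 T cells over 7 types, and Ifitm3 from 0.14 in hepatoma cells to 1.01 in macrophages over 6. They lay below 0 in each type for 3. Oasl1 ranged from -1.35 in neutrophils to -0.21 in hepatoma cells over 5 types, of which CD8 T cells turned to 0.33 as a mean over cells and 0.60 without the 1% of cells with most of its UMIs. Dtx3l ranged from -0.67 to -0.07 over 7, and Trim30a from -0.73 to -0.05 over 7.

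The number of distinct members per cell was counted after thinning each cell to 1000 UMIs. The median was 2 in hepatoma cells, 3 in neutrophils, 4 in macrophages and 1 in CD8 T cells, in both libraries alike, and 7 in control and 5 in treated monocytes. Cells with at least 5 members made up 11.2% of control and 11.3% of treated hepatoma cells, and 4.03% and 4.09% of CD8 T cells. In neutrophils they made up 35.8% (27.7 to 44.6) and 30.02% (27.3 to 32.8), and in macrophages 44.6% (34.7 to 54.8) and 37.9% (32.6 to 43.5), with overlapping intervals in both types.

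**Figure D5:**
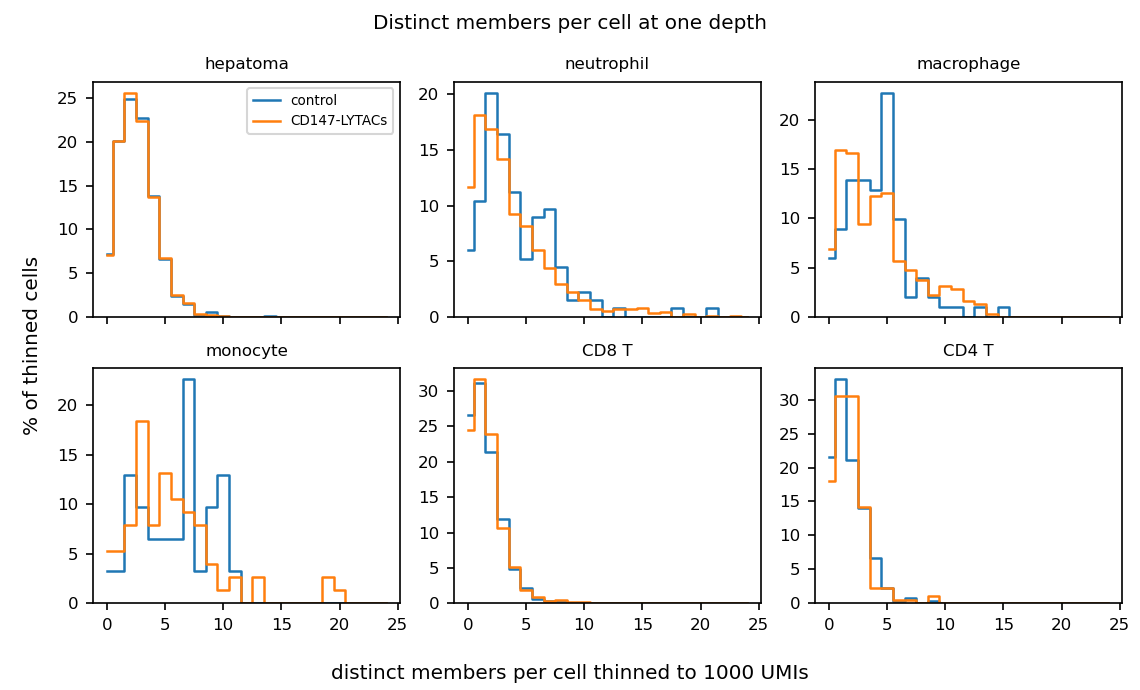
Share of cells (vertical, percent) by the number of distinct members detected after thinning to 1000 UMIs (horizontal), in 6 gated cell types of the control and the CD147-LYTACs library. The hepatoma and CD8 T curves of the 2 libraries nearly coincide, with medians of 2 and 1, while neutrophils and macrophages have tails past 10 members.

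Other genes of the pathway were taken from lists by role. In hepatoma cells, 0 of 5 receptor and kinase genes, 0 of 9 negative regulators, 0 of 11 upstream sensing genes and 0 of 21 interferon-gamma-related genes were 1.5-fold apart in either direction. Of all genes there, 1.48% were higher and 2.32% lower by this fold. The receptor chains Ifnar1 and Ifnar2 were at 28.5 and 26.6 CPM (-0.10) and at 58.2 and 65.7 CPM (0.17). In macrophages 0 of 6 negative regulators were 1.5-fold apart, where 8.06% of all genes were higher and 10.3% lower. In CD8 T cells the 9 negative regulators had a median of -0.11, with 6 below 0. The 1 regulator at least 1.5-fold apart, where 1.64% of all genes were higher and 1.14% lower, was Socs3, a feedback inhibitor of cytokine signalling. Socs3 was at 15.2 and 26.4 CPM (0.79) and was named after its value was seen. Its relative Socs1 was at 21.7 and 28.6 CPM (0.39, interval 0.20 to 0.59). Of the interferon-gamma-related genes, 5 of 15 were at least 1.5-fold lower and 0 higher in conventional dendritic cells, where 6.37% and 5.89% of all genes were. In neutrophils 5 of 14 were lower and 2 higher, where 15.8% and 8.94% of all genes were. In regulatory T cells 0 of 11 were lower and 4 higher, where 6.96% and 3.68% of all genes were. The list holds H2-Aa, which, like the macrophage markers, was higher in the treated regulatory T cells, as given above. The part of macrophage RNA in this count was not tested. In conventional dendritic cells Ifnar1 was at 95.6 and 63.7 CPM (-0.58).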

How the data were processed

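Each library's table holds raw UMI counts per gene and barcode as deposited by the authors, whole numbers with no normalization. Cell Ranger 3.0.2 and mm10 are named per the submitters' processing notes, but per the file headers the version was 7.1.0. The gene annotation used for counting is not stated. Barcodes were kept from 500 UMIs and 300 genes up, with mitochondrial UMIs no more than 15% (7091 control, 8176 treated). Scrublet's own threshold called 1 control and 134 treated doublets, so the highest scores were removed at 0.8% per 1000 barcodes (402 and 535). Cells were gated on marker lists with thresholds set after seeing the data, and barcodes of more than 1 lineage (166 and 431) were left out. Members, lists and tests were chosen with earlier results of these data known.

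Counts were summed per library and type. Poisson intervals (levels), Clopper-Pearson intervals (shares) and conditional binomial intervals (ratios) are exact. Members were named by rule: in each type the top 4 and bottom 4 ratios, the 10 most abundant, Irf7, Irf9, Stat2 and the member with most UMIs per role; Ifi213, Cmpk2 and genes described by cell type were named after their values were seen. Promoters came from RefSeq (GRCm38.p6). The calculation of ratios was checked on simulated CD8 T counts. These were drawn without clustering of UMIs in few cells, so the check does not bear on such clustering or on other types. Python 3.11.15, numpy 2.4.6, scipy 1.17.1, pandas 2.3.3 and scanpy 1.11.5 were used.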

Additional observations from a re-analysis of the deposited data

Results flagged for a closer look

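Barcodes carrying markers of more than 1 lineage entered no comparison, and they held Ifnb1 UMIs: 10 UMIs in 8 of 166 such control barcodes and 34 UMIs in 15 of 431 such treated barcodes. This is a signal outside the gated cell types, at 3.01 CPM in the control and 5.35 CPM in the treated library. The treated barcode with most held 9 of the 34 UMIs. Ifnb1 was not particular to these barcodes: gated monocytes stood at 15.9 and 4.76 CPM and gated macrophages at 5.22 and 2.66 CPM. The signal was not compared beyond these values.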

How the results depend on the processing

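No paired analysis was possible because each group has 1 library, and for the same reason no replicate could be left out. The median ratio of the members left the interval that the spread of its members gives in CD8 T cells as a mean over cells (0.011) and in neutrophils thinned to 1000 UMIs per cell (-0.32). That interval takes members as independent. Over the 8 regulatory T members it ran from the smallest to the greatest ratio, so staying within it says little. Within its interval the median in regulatory T cells also fell from 0.30 to 0.04 with genes from 30 UMIs up. There it was 0.31 over 43 members with at least 1 UMI in each library, and 0.44 as a mean over cells. In macrophages the median went from -0.07 to -0.25 (stricter gate) and -0.24 (mean over cells). In conventional dendritic cells it turned from -0.02 to 0.01 (looser filter) and 0.09 (30 UMIs). Counts of members at least 1.5-fold apart moved as follows. The shares of all genes past the fold were not counted under these alternatives, so the counts have no background beside them. Thinned to 1000 UMIs, far fewer members could be compared: 20 in hepatoma cells, 23 in CD8 T cells, 16 in neutrophils, 9 in macrophages, 2 in conventional dendritic cells, and 1 in CD4 T and regulatory T cells. Higher members then numbered 0 in CD4 T cells, conventional dendritic cells and neutrophils, and stayed at 3 in macrophages. Lower members numbered 1 in hepatoma cells (Ifih1, none of the 6 being comparable), 4 in macrophages, 2 in neutrophils, 1 in conventional dendritic cells, and 0 in CD8 T and regulatory T cells. As a mean over cells, higher members numbered 7 in macrophages, 1 in neutrophils, 2 in regulatory T cells and 0 in CD4 T cells, and lower members 1 in CD8 T cells. With genes from 30 UMIs up, higher members numbered 8 in macrophages, 6 in neutrophils, 5 in conventional dendritic cells, 4 in CD8 T and regulatory T cells, 2 in CD4 T cells and 1 in hepatoma cells. At a fold of 2, higher members numbered 1 in macrophages and 0 in neutrophils, conventional dendritic, CD8 T and CD4 T cells, and lower members 3 in macrophages, 1 in neutrophils, and 0 in conventional dendritic, CD8 T and regulatory T cells. With no doublet removal, higher members numbered 4 in CD8 T cells, 1 in hepatoma cells and 0 in CD4 T cells, and lower members 1 in CD8 T and CD4 T cells. Doublet removal at 1.6% per 1000 gave 4 lower members in CD8 T cells. A stricter barcode filter gave 2 higher members in CD8 T and 1 in regulatory T cells, and a looser one gave 1 higher in neutrophils and 1 lower in CD8 T cells. A stricter gate gave 1 higher in regulatory T and 1 lower in CD8 T cells, and left too few dendritic and NK cells to compare. Median-ratio scaling gave 5 higher in neutrophils and 1 in regulatory T cells, and a total without mitochondrial, ribosomal and haemoglobin genes gave 1 higher in regulatory T cells. Of 1367 values for named members under these alternatives, 1271 stayed within their counting interval and 94 moved beyond it. The other 2, both Oasl1 in CD8 T cells, changed direction, to 0.33 as a mean over cells and 0.60 without the 1% of cells with most UMIs of the gene, an alternative chosen after seeing the data. Apart from thinning and the smaller number of genes compared under it, the causes were not tested. In hepatoma cells Ifit1 ranged from -1.80 to -1.19 and Rsad2 from -1.08 to -0.66. Depth left 1 member to compare in NK cells and 8 in regulatory T cells.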
